A study of Homo sapiens with 6 samples.

Results

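ITGA2, ITGA3, ITGA5, ITGAV, ITGB1, ITGB3, ITGB5 and ITGB8 encode integrin subunits that do not form the CD104 receptor itself. They were taken by symbol from the deposited table of 15024 genes, and all 8 were found, each on 1 row. Integrins are receptors made of an alpha and a beta chain that tie the extracellular matrix to the actin cytoskeleton. ITGB1 encodes the shared β1 chain, which pairs with α2 to bind collagen, with α3 to bind laminin and with α5 to bind fibronectin. The αV chain, encoded by ITGAV, pairs with β1, β3, β5 or β8, and also with β6, whose gene ITGB6 was not analysed here. These αV receptors read the RGD motif of vitronectin and fibronectin, and αVβ8 also binds and activates latent TGF-beta.

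The cells were MDA-MB-231, an established triple-negative breast cancer line, carrying the guide labelled sgNT. Every library came from cells kept in 10 µM forskolin, an activator of adenylyl cyclase, for 14 days, so no untreated library enters any comparison. One group was CD44+CD104high, which the design text calls hybrid EMT (epithelial-mesenchymal transition). The other was CD44+CD104-/low, which it calls mesenchymal. Each had 3 libraries, numbered 1 to 3 and called biological replicates in the labels, without a word on separate cultures or sorts. P-values therefore measure only the spread between these libraries. The MLL3-mutant cells that the design text names were not analysed here.

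CD104 is the β4 chain, encoded by ITGB4, and so the gate itself selected on an integrin. ITGB4 had normalised read counts of 15969.6 to 19493 in CD104high libraries and 2317 to 3802 in CD104low libraries. ITGA6, which encodes the only alpha chain that β4 pairs with, had 14126 to 16492 in CD104high and 7378 to 9092 in CD104low libraries. In both groups VIM, CD44, CAV1 and AXL, markers of this mesenchymal line, were high, between 20735 and 94676 in every library. ERBB2, a receptor gene low in triple-negative lines, had 8272 to 9262 in CD104high and 7443 to 7789 in CD104low, and ESR1, PGR and CDH1 were not analysed here. EPCAM, CLDN3, CLDN4 and CLDN7 had also been chosen as low or absent in this line. CLDN4 had 4561 to 5168 in CD104high and 4396 to 5802 in CD104low. Both ERBB2 and CLDN4 were above the median mean count of all tested genes, 1323. EPCAM had 591 to 798 in CD104high and 506 to 711 in CD104low. CLDN3 had 216 to 227 and 235 to 305, and CLDN7 331 to 434 and 219 to 286, in the same order. Libraries held between 52088604 and 56958065 gene reads. Of 10 markers of immune, endothelial and fibroblast cells, 5 were in the table (CD14, PECAM1, PDGFRB, DCN and LUM), and the other 5 were not analysed here. Their summed count was 3053 to 5121 in CD104high and 1549.8 to 3486 in CD104low libraries. Within that sum PECAM1 and DCN stayed under 10 in every library. CD14 had 534 to 573 in CD104high and 240 to 263 in CD104low, and was called higher (log2 fold change 1.14, limma adjusted p = 0.000359). The fibroblast marker PDGFRB had 2311 to 3892 in CD104high and 1276 to 3018 in CD104low (limma adjusted p = 0.128). LUM had 162 to 643 in CD104high and 21.7 to 222 in CD104low (adjusted p = 0.0591). The part of other cells in the results was not tested. In such bulk samples a lower level per cell and fewer expressing cells cannot be told apart.

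The comparison asked which of these subunits differed between CD104high and CD104low cells after the same treatment. ITGA3, ITGB5 and ITGB8 rose in CD104high cells, by 1.43-fold, 1.55-fold and 1.82-fold. ITGA2, ITGA5, ITGAV, ITGB1 and ITGB3 did not pass the test, and no subunit fell. In limma fitted over 14343 genes with a threshold of 0.05 on the adjusted p, 3 of the 8 subunits were called higher, and 12.1% of all tested genes were. The count called lower was 0 of 8, against 11.3% of all tested genes. ITGA5, the only member with a fold change below 0, had an unadjusted limma p of 0.307. On recovered reads, edgeR with TMM and DESeq2 called 0 of 8 lower, beside 1663 and 1894 of the 14343 genes. With only 8 members, a count of 0 is close to these shares and is not read as a result about them. The log2 fold change was above 0 for 7 of 8, against 51.2% of all genes. Its median was 0.39 over the 8 subunits and 0.01 over all tested genes. The groups did not overlap for ITGA3, ITGB5 and ITGB8, with CD104high above CD104low, as was the case for 19.9% of all tested genes, and 41.2% had no overlap in either direction.

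**Figure D1:**
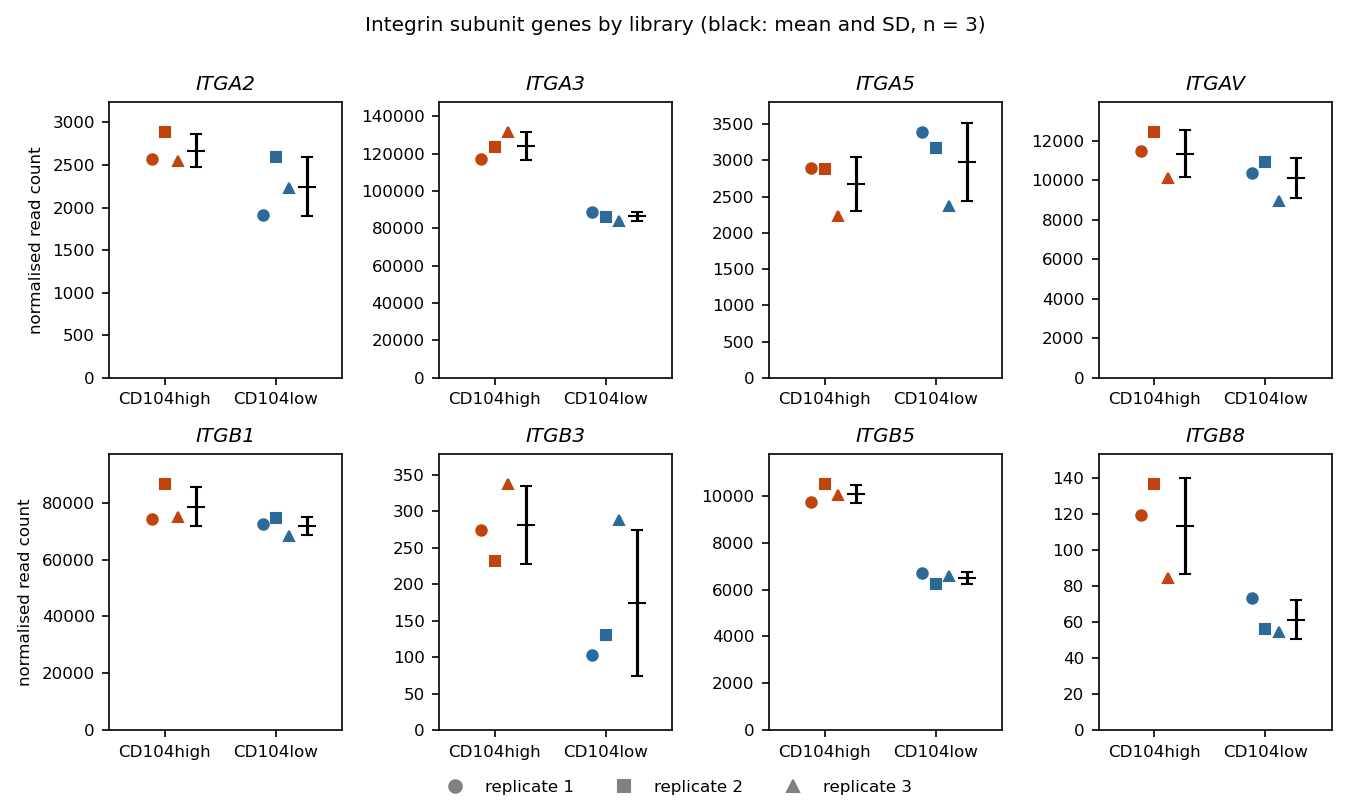
Normalised read count (y axis, from 0, with its own scale in each panel) of the 8 integrin subunit genes in 3 CD104high (left, orange) and 3 CD104low libraries (right, blue). Point shapes give the replicate number, and black bars give the mean and SD over 3 libraries. The groups separate for ITGA3, ITGB5 and ITGB8, and the library numbered 3 of CD104low stands at 288 for ITGB3, above 231 and 275 in CD104high.

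Among the β1 partners, ITGA3 encodes the laminin-binding α3 chain. It had 117127, 123438 and 131749 normalised reads in CD104high replicates 1 to 3, and 88856, 86209 and 84180.2 in CD104low replicates 1 to 3. All CD104high libraries were above all CD104low libraries. Means were 124105 ± 7333 in CD104high and 86415 ± 2345 in CD104low (SD, n = 3 each). This came to a log2 fold change of 0.52 (SE 0.08, 95% interval 0.34 to 0.70, limma adjusted p = 0.00194). The call held in every alternative fit, with adjusted p of at most 0.0152. ITGA3 (ENSG00000005884.18) spans 50055968 to 50090481 on the plus strand of chromosome 17 in GRCh38.

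ITGA2 encodes the collagen-binding α2 chain. Its normalised counts were 2568, 2891 and 2548 in CD104high and 1907, 2596 and 2236 in CD104low. CD104low replicate 2 lay within the CD104high range, so the groups overlapped, although CD104high was above CD104low in each of the 3 numbered pairs. The log2 fold change was 0.26 (SE 0.11, adjusted p = 0.121), and with the replicate number as a block the adjusted p was 0.0280. Without CD104low replicate 2 it was 0.37 (adjusted p = 0.0417).

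ITGA5 encodes the α5 chain of the fibronectin receptor and was the only member with a fold change below 0. CD104high libraries had 2895, 2878 and 2238, and CD104low libraries had 3397, 3174 and 2377. The groups overlapped because CD104low replicate 3 lay within the CD104high range. Both libraries numbered 3 were the lowest of their group. CD104high was below CD104low in all 3 numbered pairs, but by no more than 0.23 on the log2 scale. Fitted over all genes, its log2 fold change was −0.15 (SE 0.14, 95% interval −0.47 to 0.16, adjusted p = 0.474, and 0.108 with the block).

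ITGB1, the common partner of these chains, had 74404, 86613 and 74948 in CD104high and 72376, 74628 and 68414 in CD104low. The groups overlapped, since CD104low replicate 2 lay above CD104high replicate 1. Its log2 fold change was 0.13 (SE 0.08, adjusted p = 0.302), and the 95% interval of −0.06 to 0.32 reached at most a 1.25-fold rise. ITGB1 (ENSG00000150093.19) lies on the minus strand of chromosome 10, from 32900319 to 33005792.

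Of the αV receptors, the alpha gene ITGAV had 11472, 12459.9 and 10097 in CD104high and 10385, 10942 and 8977 in CD104low. Groups overlapped, with both libraries numbered 3 the lowest of their group, and CD104high was above CD104low in each numbered pair by 0.14 to 0.19 on the log2 scale. The log2 fold change of 0.17 (SE 0.10, 95% interval −0.05 to 0.38) had an adjusted p of 0.240, and 0.0515 with the block.

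ITGB5 encodes the β5 chain of the vitronectin receptor αVβ5. It had 9753, 10523 and 10049 in CD104high and 6725, 6233 and 6580.1 in CD104low. The groups were far apart relative to the spread within them, at means of 10108 ± 389 and 6513 ± 253 (SD, n = 3 each). ITGB5 rose by 0.63 on the log2 scale (SE 0.06, 95% interval 0.49 to 0.78, limma adjusted p = 0.000326), the lowest adjusted p of the 8 members. Its adjusted p was at most 0.0108 in every alternative fit. ITGB5 (ENSG00000082781.12) spans 124761948 to 124901418 on the minus strand of chromosome 3.

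The 250 bases before the transcription start of ITGB5, and those of its partner ITGAV, are shown because the beta gene rose and the alpha gene did not pass. They are RefSeq sequences on GRCh38.p14. For ITGB5 the window is chr3:124901419-124901668 on the minus strand, and for ITGAV it is chr2:186589806-186590055 on the plus strand. Capitals mark matches to the GC box GGGCGG on either strand.
ITGB5: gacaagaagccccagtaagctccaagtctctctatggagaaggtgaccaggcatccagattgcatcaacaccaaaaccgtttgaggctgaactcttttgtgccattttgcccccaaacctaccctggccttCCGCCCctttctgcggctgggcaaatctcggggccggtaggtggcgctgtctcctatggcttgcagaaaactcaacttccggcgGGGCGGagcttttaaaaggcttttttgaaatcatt
ITGAV: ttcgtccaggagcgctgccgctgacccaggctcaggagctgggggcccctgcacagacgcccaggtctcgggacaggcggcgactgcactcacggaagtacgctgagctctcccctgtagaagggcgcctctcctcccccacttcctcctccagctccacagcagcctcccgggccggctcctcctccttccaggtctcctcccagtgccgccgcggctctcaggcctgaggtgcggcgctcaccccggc

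The ITGB5 window held 2 GC boxes, beginning at positions −119 and −35 from the start, and the ITGAV window held none. GC content was 52.8% for ITGB5 and 70.8% for ITGAV. Of the 8 members, 6 had a RefSeq promoter entry, of which the one with its start nearest to the GENCODE gene start was used. For ITGB1 that start still lay 47562 bases inside the annotated gene. GC boxes stood in 5 of these 6, and in 42.6% of 35116 promoter windows of the same length. Searched on both strands, the cAMP response element TGACGTCA was in none of the 6 (1.65% of all windows), and its core TGACG in 1, that of ITGB1 (21.2%). The AP-1 motif TGANTCA (6.57%) and the E-box CAGGTG (17.5%), read by repressors such as ZEB1 and SNAI1, were in none. The TEAD motif GGAATG was in the windows of ITGA5 and ITGB1 (11.9%), and the TATA box TATAAA in none (10.7%). The core TGACG is also part of the full cAMP element. These matches describe letters in the windows and nothing about binding.

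ITGB3 encodes the β3 chain of αVβ3, which binds vitronectin, and was weakly expressed. CD104high libraries had 275, 231 and 338 normalised reads, and CD104low libraries had 103, 131 and 288. CD104low replicate 3 lay within the CD104high range, and both libraries numbered 3 were the highest of their group. Its log2 fold change was 0.82 (SE 0.33, 95% interval 0.08 to 1.55, adjusted p = 0.102). With the replicate block its adjusted p was 0.0134. Without CD104low replicate 3 the log2 fold change was 1.25 (adjusted p = 0.00272), and without both libraries numbered 3 it was 1.11 (adjusted p = 0.000830). The authors' deposited table gives ITGB3 a log2 fold change of 0.69 and an adjusted p of 0.0597. In the annotation a protein-coding gene, AC068234.1, overlaps 57920 bases of ITGB3 on the same strand, so reads shared between them make the ITGB3 count uncertain.

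ITGB8, which encodes the β8 chain, was the least abundant member. CD104high libraries had 119.5, 137 and 84.4 normalised reads, and CD104low libraries had 73.7, 56.1 and 54.6. The groups did not overlap, but CD104high replicate 3 and CD104low replicate 1 came close, at 82 reads (exact Poisson 95% interval 65.2 to 102) and 76 reads (59.9 to 95.1). Such intervals cover counting error only. The log2 fold change was 0.86 (SE 0.25, 95% interval 0.31 to 1.42, limma adjusted p = 0.0323). The call ended without CD104high replicate 1 (adjusted p = 0.116) or replicate 2 (0.126), and without CD104low replicate 2 (0.0866) or replicate 3 (0.0638). In the authors' deposited table ITGB8 has a log2 fold change of 0.89 and an adjusted p of 0.00782. ITGB8 (ENSG00000105855.10) spans 20330702 to 20415754 on the plus strand of chromosome 7.

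**Figure D2:**
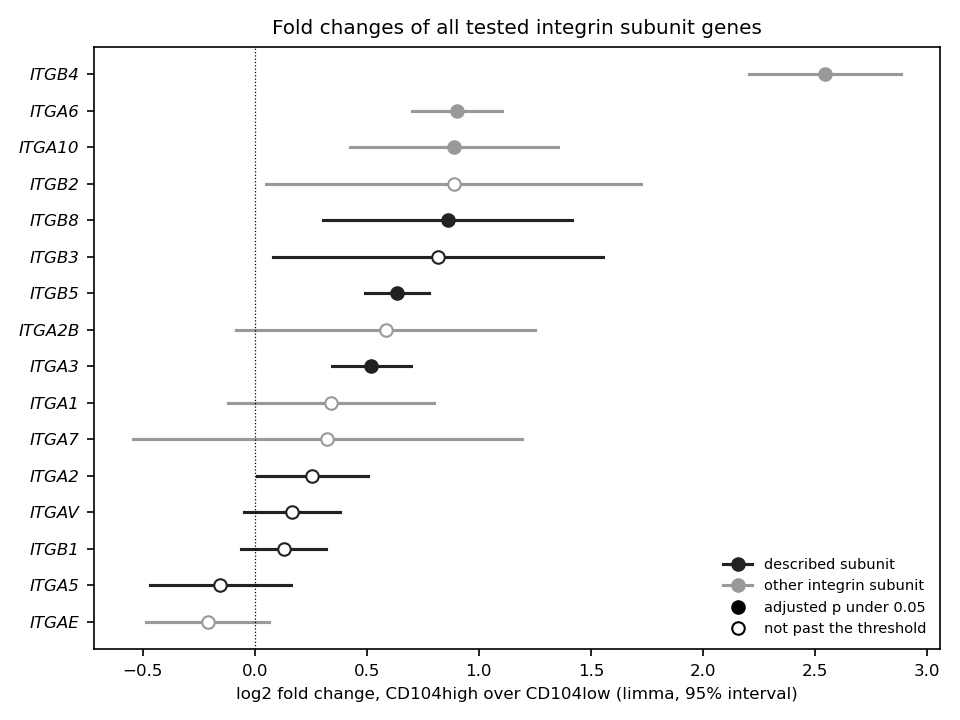
Log2 fold change (x axis) of CD104high over CD104low for all 16 tested integrin subunit genes, with 95% intervals from limma. Black marks the 8 described subunits, grey the others, and filled points passed the threshold. ITGB8, ITGB5 and ITGA3 are filled at 0.86, 0.63 and 0.52, and the interval of ITGB1 spans −0.06 to 0.32.

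Set by their number, the libraries gave the same sign in every pair for each member. CD104high was above CD104low in all 3 pairs for 7 of 8 members, as it was for 30.9% of all tested genes. For ITGB3 the log2 difference was 1.41 between the libraries numbered 1, 0.82 between those numbered 2 and 0.23 between those numbered 3. ITGB8 had 0.69, 1.27 and 0.62 in the same order, and ITGA3 had 0.40, 0.52 and 0.65. With the replicate number as a block, 5 of 8 members passed as higher (17.4% of all tested genes), the added members being ITGA2 and ITGB3.

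**Figure D3:**
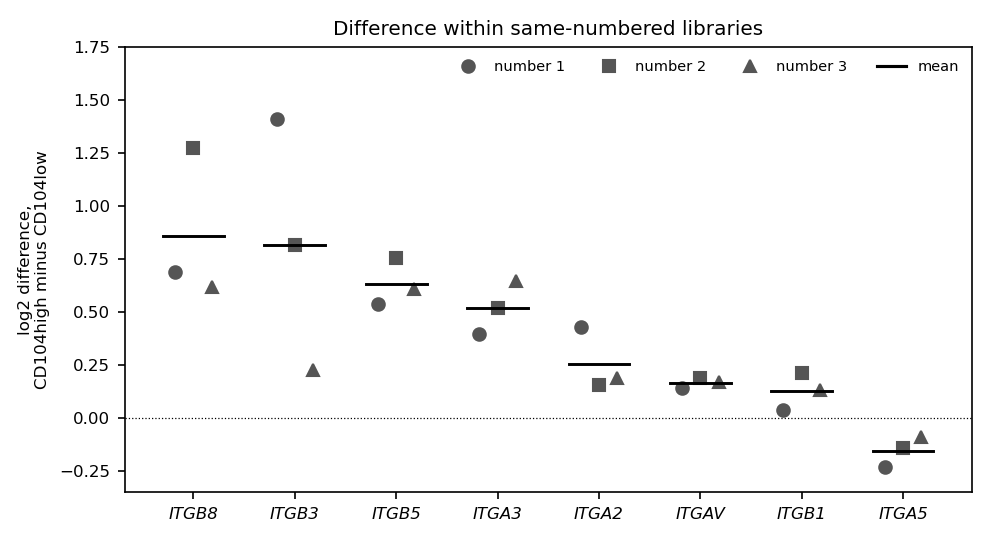
Log2 difference of CD104high minus CD104low within same-numbered libraries (y axis) for each of the 8 subunit genes (x axis, ordered by mean difference). Point shapes give the number and the bar gives the mean. ITGA5 lies below 0 in all 3 pairs, and ITGB3 ranges between 0.23 and 1.41.

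Levels of different genes were compared as normalised reads per kb of annotated exon. The length counted every annotated exon of a gene, and the lengths of the transcripts made in these cells were not measured. The order of genes close in level, such as ITGB1 and ITGA3 or ITGAV and ITGB5, therefore depends on the lengths used. Before scaling to length, ITGA3 had more normalised reads than ITGB1 in both groups. ITGB1 and ITGA3 led, at 13085 ± 1147 and 12661 ± 748 per kb in CD104high, and 11946 ± 523 and 8816 ± 239 per kb in CD104low (SD, n = 3 each). Their ranges overlapped in CD104high and were apart in CD104low, where ITGB1 was higher. By mean over the 6 libraries, ITGB1 was within the top 0.714% of genes and ITGA3 within the top 0.880%. ITGAV and ITGB5 came next, at 1381 ± 145 and 1568 ± 60.3 per kb in CD104high and 1230.2 ± 123 and 1010.2 ± 39.2 per kb in CD104low. ITGB5 was above ITGAV in each of the 3 CD104high libraries, although their ranges over libraries overlapped, while in CD104low the range of ITGAV lay above that of ITGB5. ITGA5 and ITGA2 followed, at 352 ± 49.4 and 337 ± 24.4 per kb in CD104high and 394 ± 70.7 and 284 ± 43.5 per kb in CD104low, and overlapped in both groups. ITGB3 had 64.0 ± 12.2 per kb in CD104high and 39.6 ± 22.8 in CD104low. ITGB8 came last, with 7.50 ± 1.77 and 4.06 ± 0.70 per kb in the same groups.

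Summed per kb, the 11 alpha subunit genes in the table came to 17474 ± 797 in CD104high and 12387 ± 423 in CD104low (SD, n = 3 each). The 6 beta subunit genes came to 17371 ± 971 in CD104high and 13473 ± 414 in CD104low. Neither pair of ranges overlapped. ITGA3 made up 75.6% of the difference between groups in the alpha sum, and ITGA6 21.6%. In the beta sum ITGB4, the sort marker, made up 55.3% of the difference, ITGB1 29.2% and ITGB5 14.3%. ITGB1 held 75.2% ± 2.4 of the beta sum in CD104high and 88.6% ± 1.3 in CD104low, with no overlap of the groups. Because this sum includes the sort marker ITGB4, the lower share is not a fall of ITGB1. The mean ITGB1 level per kb in CD104high was 1.10 times that in CD104low, and ITGB1 did not pass the test. The share of ITGB5 was 9.03% ± 0.24 in CD104high and 7.51% ± 0.47 in CD104low, and that of ITGB4 15.1% ± 2.2 and 3.39% ± 0.88 in the same groups. ITGA3 held 72.4% ± 1.7 of the alpha sum in CD104high and 71.2% ± 1.4 in CD104low, and the groups overlapped. ITGAV had 7.92% ± 0.97 in CD104high and 9.92% ± 0.68 in CD104low, and ITGA5 2.03% ± 0.35 in CD104high and 3.17% ± 0.48 in CD104low. Shares of a sum, and of a difference between sums, depend on each other and on the exon lengths used, and no test was made on them.

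**Figure D4:**
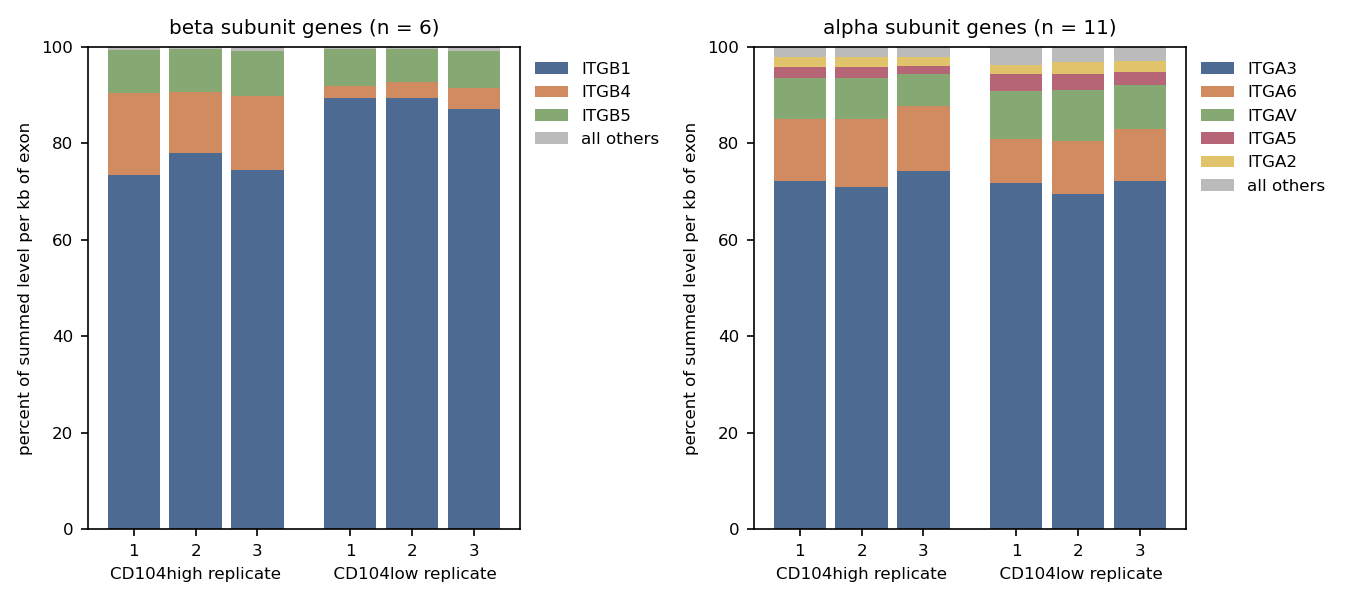
Share of the summed level per kb of exon (y axis, percent) held by each beta (left panel, 6 genes) and alpha (right panel, 11 genes) subunit gene in each library, CD104high at left and CD104low at right in each panel. The ITGB1 segment averages 75.2% in CD104high and 88.6% in CD104low, and the ITGA3 segment 72.4% and 71.2%. The beta sum includes the sort marker ITGB4, so the smaller ITGB1 segment in CD104high is not a fall of ITGB1.

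To compare partner chains within a library, 8 log2 ratios, including both directions of ITGAV and ITGB1, were tested with a two-sided exact permutation test over the 6 libraries, whose smallest possible p is 0.1. These ratios are of normalised reads not scaled to length, so their sign does not say which chain had the higher level per kb, and only the difference between the groups is read. ITGA3 over ITGB1 averaged 0.66 ± 0.15 in CD104high and 0.27 ± 0.05 in CD104low, and the groups did not overlap (exact p = 0.1, 0.267 adjusted over the 8 ratios). ITGB5 over ITGAV averaged −0.16 ± 0.13 in CD104high and −0.63 ± 0.18 in CD104low (exact p = 0.1, adjusted 0.267). ITGB8 over ITGAV averaged −6.65 ± 0.21 in CD104high and −7.35 ± 0.23 in CD104low (exact p = 0.1, adjusted 0.267). The remaining 5 ratios overlapped between the groups. Of these, ITGAV over ITGB1 differed least, by 0.04 (exact p = 0.6), and ITGA5 over ITGB1 had −4.89 ± 0.19 in CD104high and −4.60 ± 0.22 in CD104low (exact p = 0.2). With 3 libraries against 3, this exact test cannot go below 0.05 for any ratio.

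Of the other 18 integrin subunit genes, 9 were in the table and 8 were tested. Besides ITGB4 and ITGA6, ITGA10 rose. It encodes a collagen-binding alpha chain that pairs with β1, and had 153, 188 and 165 in CD104high and 75.7, 114 and 84.5 in CD104low. Its log2 fold change was 0.89 (SE 0.21, adjusted p = 0.0135), and without CD104high replicate 2 its adjusted p was 0.0607. No other subunit passed. With the block 5 of these 8 passed, as 32.8% of all tested genes did. Without both libraries numbered 3, 3229 of the 14343 tested genes were called, 1765 of them higher. Among these 8 subunits the count in that fit was 6, of which 5 were higher. The 1 lower gene there was ITGAE, which encodes the αE chain and is named after its values were seen (log2 fold change −0.36, adjusted p = 0.0452, against −0.21 and 0.246 with all libraries). Over all 16 tested integrin subunit genes, the sort marker ITGB4 included, 6 were higher and 0 lower, beside 12.1% and 11.3% of all tested genes.

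The ligands, adaptors and regulators of these receptors were described through lists. Of 29 tested matrix ligands, 16 were higher, 1 lower and 12 did not pass, beside 23.4% of all genes called in either direction. Their median log2 fold change was 0.50. EDIL3, an RGD protein that binds αV integrins, had 16448, 19351 and 16736 in CD104high and 9283, 8816 and 8709 in CD104low. It rose by 0.97 on the log2 scale (SE 0.08, adjusted p = 0.00013). The fibrillar collagen gene COL5A1 was 1.90-fold higher, and the fibrillin gene FBN1, whose product has an RGD motif, 1.67-fold.

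Of 49 tested adaptors that link integrin tails to actin and signalling, 8 were higher and 6 lower, with a median of 0.02. The share called, 28.6%, was near the 23.4% of all tested genes. The count of 14 called adaptors was 7 without CD104high replicate 1, 9 without CD104low replicate 2, and 8 in limma without the mean-variance trend. The count over all tested genes, 3355, was also lower in these fits, at 1816, 2308 and 2173 in the same order. PTK2B, a kinase related to focal adhesion kinase, had a log2 fold change of 0.69 (adjusted p = 0.00134), the scaffold gene NEDD9 1.08 (adjusted p = 0.00496) and KANK2, which encodes a talin-binding protein, 0.38 (adjusted p = 0.00482). ZYX, which encodes the tension-sensitive adhesion protein zyxin, fell by 0.46 (adjusted p = 0.00146). Its counts were 6037, 5475 and 5833 in CD104high and 8305, 7698 and 7927 in CD104low. The groups did not overlap, as for 41.2% of all tested genes in either direction.

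Of 39 tested regulators and trafficking genes 7 were higher and 2 lower, with a median of 0.05. The share called was 23.1%, beside 23.4% of all tested genes. NRP1, a coreceptor, LGALS3, which encodes the glycan-binding galectin-3, CD47, an integrin-associated protein, and RAB11FIP5, an effector of recycling endosomes, were 1.66-fold, 1.65-fold, 1.37-fold and 1.34-fold higher. Of 12 tested genes of latent TGF-beta and its activation, 8 were higher and 0 lower, with a median of 0.32. The share called was 66.7%, beside 23.4% of all tested genes. Without CD104high replicate 2 or in limma without the trend, 5 were higher. The count of all genes called, 3355, was 2021 and 2173 in these fits. At a threshold of 0.01 the list count was 5 (1436 over all genes). With a log2 fold change of at least 0.5 it was 4 (1330 over all genes). LTBP1, named after its values were seen, did not pass in the main fit (log2 fold change 0.16, limma adjusted p = 0.736). Among the 8 higher genes, the LTBP family genes LTBP2, LTBP4 and LTBP3 were 1.88-fold, 1.44-fold and 1.84-fold higher, and the receptor gene TGFBR2 1.49-fold. EDIL3, COL5A1, FBN1 and these 4 genes each had no overlap between groups, with CD104high above CD104low, as for 19.9% of all tested genes. They were named for their low p, so this separation adds no support.

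**Figure D5:**
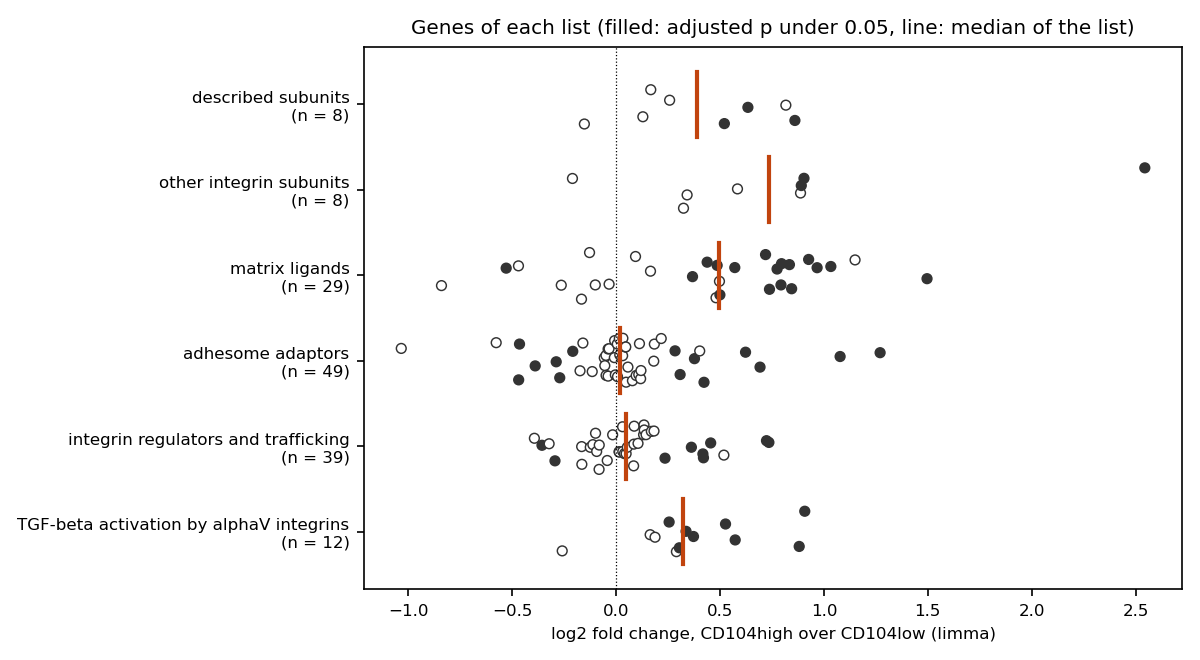
Log2 fold change (x axis, CD104high over CD104low) of each tested gene in the described subunits and 5 gene lists (rows, number of genes in brackets). Filled points passed an adjusted p of 0.05 and the orange line is the median of the list, at 0.39 for the described subunits, 0.50 for matrix ligands and 0.02 for adhesome adaptors.

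Genes whose pattern over the 6 libraries was most like that of each member were sought among 7172 genes at or above the median level, by Pearson's r of the log2 values. The 6 libraries hold both groups and share replicate numbers, so r is given as a description. An r of at least 0.95 was reached by 17 genes for ITGA5, the fewest, and by 239 genes for ITGB5, the most. The closest 2 genes are therefore not particular to a member. For ITGB5 these were DDR1 and EDIL3 (r = 0.996 and 0.995), DDR1 being a collagen receptor kinase, and for ITGA3 they were KDELR3 and CTSH (r = 0.994 each). ITGA2 was closest to CPD and DNAJC13 (0.992 and 0.991), ITGA5 to ARHGDIB and MARCKSL1 (0.998 and 0.993), and ITGAV to KDM3A and LOX (0.998 and 0.989). ITGB1 was closest to SPRED1 and SPART (0.987 and 0.984), ITGB3 to TP53INP2 and CHP1 (0.993 and 0.989), and ITGB8 to PLEKHA2 and BNIP3L (0.997 and 0.987). No gene was among the closest pair of more than 1 member.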

How the data were processed

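The 6 libraries were analysed from 1 table of per-library values. The submitters' processing notes list DESeq2 1.30.1, featureCounts 1.5.0, STAR 2.4.0 and FastQC, and the builds hg38 and GRCh38.p13. The sources used here give neither their roles nor a strand setting. The deposited per-library values are a signal: gene read counts divided by 1 size factor per library. The authors also deposited log2 fold changes with standard errors, a score (the test statistic) and p-values. From the values, reads were recovered, with 99.99% or more of each library whole to within 0.1. This is less certain in CD104high replicate 2, where 1 read is worth 0.993, and count tests are alternatives only.

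The main test was limma 3.58.1, run in R 4.3.3 with its trend option on log2(value + 1). The added 1 understates changes of low genes a little (ITGB8 0.86, against 0.87 with 0.1 added). It used genes with at least 10 in at least 3 libraries (14343 of 15024, all 8 members included) and Benjamini-Hochberg adjustment over all of them. The code was tested on simulated data. Deviations from the group mean correlated between same-numbered libraries of the 2 groups (r = 0.17, 0.32 and 0.48 for numbers 1 to 3). Between CD104high 2 and CD104low 1, r was 0.13, and between CD104high 1 and CD104low 2 it was 0.09. Between number 3 and the other numbers r was −0.37 to −0.22. The data thus set number 3 apart, but hardly pair number 1 with 1 rather than with 2. The labels do not say whether the numbers pair the libraries. The main fit stayed unpaired. The members, lists and alternatives were chosen with earlier results of these data known. Named genes were the members, called integrin subunits, from each list at most 4 called genes (those of lowest p), and the 2 genes most like each member. The result of 1 gene that this rule names is not reported here. GENCODE release 29 (GRCh38) gave gene spans and exon lengths. Identifiers were matched ignoring their version, which differed for all 8 members. Annotated genes on the opposite strand overlap 7 of the 8 members, and without a known strand setting their reads cannot be told apart. On the same strand, annotated genes overlap the spans of 3 members, ITGB3, ITGB5 and ITGB8. For ITGB5 these are AC022336.3, ENO1P3 and RF00100 (1986, 1224 and 244 shared bases). For ITGB8 it is RF00275 (71 bases). Alternatives used edgeR 4.0.16 and DESeq2 1.42.0.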

Additional observations from a re-analysis of the deposited data

How the results depend on the processing

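The calls of ITGA3 and ITGB5, and the sign of every member and of each of the 8 ratios, were the same in all alternatives run. Those of the members were pseudocounts of 0.1 and 5, no filter, no trend, edgeR with TMM or DESeq2 size factors, DESeq2, limma-voom, each library left out, both libraries numbered 3 left out, the replicate block and a threshold of 0.01. Total-read scaling, the fold threshold and the block without both libraries numbered 3 were added after seeing the data. The count of members called was 5 with the replicate block and 5 with the block without both libraries numbered 3, and 2 to 3 with each library left out. Over all tested genes, 4706 passed with the replicate block and 3821 with the block without both libraries numbered 3. ITGA2 passed in both block fits (log2 fold change 0.26, and 0.29 without both libraries numbered 3), and ranged between 0.15 and 0.37 with each library left out. ITGB3 passed with the block (0.82), without both libraries numbered 3 (1.11) and with both changes (1.11), and ranged between 0.51 and 1.25 with each library left out. The replicate block changed the call of no other member. ITGB8 (0.86) did not pass a threshold of 0.01, and ranged between 0.71 and 1.06 with each library left out. The cause of these changes was not tested. The count of genes called, 3355, was 2173 without the trend, 1436 at a threshold of 0.01, 1330 with a log2 fold change of at least 0.5, and 1816 to 3313 with each library left out (1816 without CD104high replicate 1, 2021 without replicate 2). Counting error is widest for ITGB8, with 53 to 138 reads per library. For ITGB3, CD104low replicate 3 had 280 reads (exact Poisson 95% interval 248 to 315), above the intervals of the other CD104low libraries (86.8 to 128 and 111 to 158).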
